A study of Mus musculus with 15 samples.

Results

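The 10 genes described here, of 55421 listed, encode proteins that blood-vessel endothelium displays on its surface or at its cell junctions, and they were followed across 15 mouse eyecup libraries: Plvap, Kdr, Flt1, Tek, Tie1, Pecam1, Cdh5, Emcn, Eng and Esam. They were taken from a list of names that was chosen with earlier results of these data known. All 10 were found in every count file and passed the filters that left 18979 genes for testing. The libraries came from the posterior eyecup with the neural retina taken out, which holds the retinal pigment epithelium, choroid and sclera, of 2.5-month-old mice of both sexes on the C57BL/6 J background. There were 4 WT mice, 6 heterozygotes (FUN025/+) and 5 homozygotes (FUN025/FUN025). FUN025 is a mutation of Tmem135, a gene that encodes a membrane protein linked to mitochondrial dynamics and lipid metabolism. The mutation is a germline allele carried by every cell, each library holds the pooled eyecups of 1 mouse, and the sex of each mouse was not in the labels used here. The tissue was not sorted, so the counts are sums over all its cell types.

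The choroid is the vascular layer behind the retinal pigment epithelium. Its innermost capillary bed, the choriocapillaris, is fenestrated: its wall is perforated by pores closed by a diaphragm, which lets plasma solutes reach the pigment epithelium, and it is maintained by vascular endothelial growth factor A (VEGF-A) that the epithelium releases. Plvap forms the diaphragms. Kdr (VEGFR-2) and Flt1 (VEGFR-1) are receptors of the VEGF family, Kdr carrying most of the signal and Flt1 binding the ligand tightly. Tek (Tie2) is the receptor of the angiopoietins and Tie1 its partner without a ligand of its own. Eng is a co-receptor of the transforming growth factor beta family, Emcn a sialomucin of capillaries and veins, and Cdh5 (VE-cadherin), Pecam1 and Esam are adhesion molecules of the contacts between endothelial cells. Pecam1 is also carried by platelets and leukocytes, and Esam by platelets.

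Library totals ran from 18094977 to 20029919 counts in WT and from 10903183 to 15038383 in the mutants, so every WT library was deeper than every mutant library. A level of 3 counts corresponds to 0.15 to 0.275 counts for each 1000000 reads (CPM), far below the lowest member value of 43.6 CPM. Levels are CPM scaled by trimmed mean of M-values (TMM) factors. Tmem135 itself averaged 63.8 ± 2.99 CPM (SD, n = 4) in WT, 74.9 ± 7.28 (n = 6) in FUN025/+ and 88.2 ± 4.56 (n = 5) in FUN025/FUN025, and gene counts do not show the FUN025 allele. Markers of pigment epithelium were abundant in every library, with a summed level of 15200 to 20400 CPM over 6 genes. Tissue from outside the choroid differed in amount between mice: the summed level of 8 rod photoreceptor genes ran from 218 to 2120 CPM in WT, 82.3 to 629 in FUN025/+ and 89.1 to 398 in FUN025/FUN025, and that of 8 skeletal muscle genes from 4400 to 9150, 2350 to 6630 and 3860 to 5010 CPM.

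Promoters are shown for Eng, which had a large fall with allele number, and for the paralogous Tie1 and Tek, of which Tie1 was called on the slope and Tek was not. RefSeq promoters were matched for 6 of the 10 genes (Kdr, Flt1, Tek, Tie1, Emcn and Eng, build GRCm38.p6). Each sequence covers 270 bases, 250 before the transcription start and 20 from the start on, 5′ to 3′ on the strand of the gene. Capitals mark the letters CAGGAA or CCGGAA, cores of sites bound by ETS factors, a family active in endothelium, and AGATAA or TGATAA, cores of GATA-factor sites, searched on both strands. On the opposite strand the ETS cores read TTCCTG and TTCCGG and the GATA cores TTATCT and TTATCA.
Eng (chr2:32646345-32646614, + strand): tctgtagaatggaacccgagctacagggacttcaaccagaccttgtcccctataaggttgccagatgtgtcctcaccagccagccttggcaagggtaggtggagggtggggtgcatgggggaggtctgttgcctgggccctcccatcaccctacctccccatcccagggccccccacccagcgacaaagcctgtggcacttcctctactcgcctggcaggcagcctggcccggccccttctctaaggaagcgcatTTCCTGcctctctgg
Tie1 (chr4:118489830-118490099, − strand): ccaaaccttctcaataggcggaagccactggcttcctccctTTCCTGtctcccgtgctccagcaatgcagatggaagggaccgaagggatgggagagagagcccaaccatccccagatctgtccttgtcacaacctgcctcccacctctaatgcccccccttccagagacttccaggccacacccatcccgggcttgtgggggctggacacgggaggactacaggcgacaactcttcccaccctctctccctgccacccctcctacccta
Tek (chr4:94739039-94739308, + strand): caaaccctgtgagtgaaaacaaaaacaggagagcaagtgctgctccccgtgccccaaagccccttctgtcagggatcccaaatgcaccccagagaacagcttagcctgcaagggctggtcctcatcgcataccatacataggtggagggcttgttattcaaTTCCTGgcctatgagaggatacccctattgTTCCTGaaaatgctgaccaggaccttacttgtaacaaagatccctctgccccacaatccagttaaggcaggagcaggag
An ETS core was present in 5 of the 6 windows (2 in Tek, 2 in Emcn and 1 each in Kdr, Tie1 and Eng) and in 38.0% of the 32851 promoters of the table cut in the same way. A GATA core was present in 1 window, that of Emcn, and in 17.5% of all. The match in Eng lay at position 6 after the start, those in Tek at -89 and -59, and that in Tie1 at -209, counted from the first base of each match. A match in the window is a description of its letters and not of binding.

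All 10 genes are protein-coding in the GENCODE annotation of GRCm38, whose positions are given with each gene, and the counts cover their exons. Levels of different genes were compared per kilobase of exon (RPKM). In WT, Plvap was the most abundant member at 139 ± 13.6 RPKM (SD, n = 4), followed by Eng at 64.3 ± 6.19, and the ranges of both stood clear of the next gene. The other 8 lay between 15.4 ± 0.604 (Flt1) and 28.7 ± 2.04 RPKM (Tie1), in the order Tie1, Kdr, Cdh5, Esam, Emcn, Tek, Pecam1 and Flt1, and the range of each overlapped that of its neighbour. Exon length was that of all annotated transcripts merged, 13504 bases for Flt1, which has short and long forms, and 1987 bases for Plvap. No exon was shared with another gene on the same strand, and at most 2.5% of the 31-base words of a member (Pecam1) occurred in another gene. Eng overlapped Fpgs on the opposite strand by 61 bases, and the strand setting of the counting was not given in the sources used here.

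The first comparison asked whether the members fell with the number of mutant alleles (0, 1 or 2), as a slope over all 15 libraries. Of the 10 members, 7 fell at an adjusted p under 0.05 (edgeR quasi-likelihood test, Benjamini-Hochberg over all 18979 genes), none rose, and all 10 slopes were negative. The median slope of the members was -0.17 on the log2 scale per allele, against -0.004 over all genes tested, of which 4.62% were called lower. The members were chosen with earlier results of these data known, so setting them against all genes is a description and not independent support. Against WT, 4 members were lower in FUN025/+ (background 6.61%) and 8 in FUN025/FUN025 (background 7.0%), with medians of -0.17 and -0.34. The 4 calls in FUN025/+ (Plvap, Cdh5, Eng and Esam) were all lost with an offset for GC content (edgeR adjusted p = 0.224, 0.0549, 0.0681 and 0.0706). Their log2 changes in that fit were -0.21, -0.23, -0.31 and -0.17. The CPM ranges of FUN025/+ and WT did not overlap for Cdh5, Eng and Esam (3 members, 5.18% of all genes lower in this way), and those of FUN025/FUN025 and WT for 8 members (7.5% of all genes). Both contrasts share the WT libraries, so they are not independent, and the WT library of replicate 4 weighed on the counts: without it no member was called in FUN025/+ (3.01% of all genes lower) and 5 were called in FUN025/FUN025 (3.41%), while 1 member was called in FUN025/+ without WT replicate 3 (4.78%). Depth differed between WT and mutants, and after every library was thinned to 10903183 counts 8 members were called on the slope (3.73% of all genes lower), 3 in FUN025/+ (5.92%) and 8 in FUN025/FUN025 (6.27%). In a bulk tissue, fewer endothelial cells and less RNA per cell cannot be told apart.

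**Figure D1:**
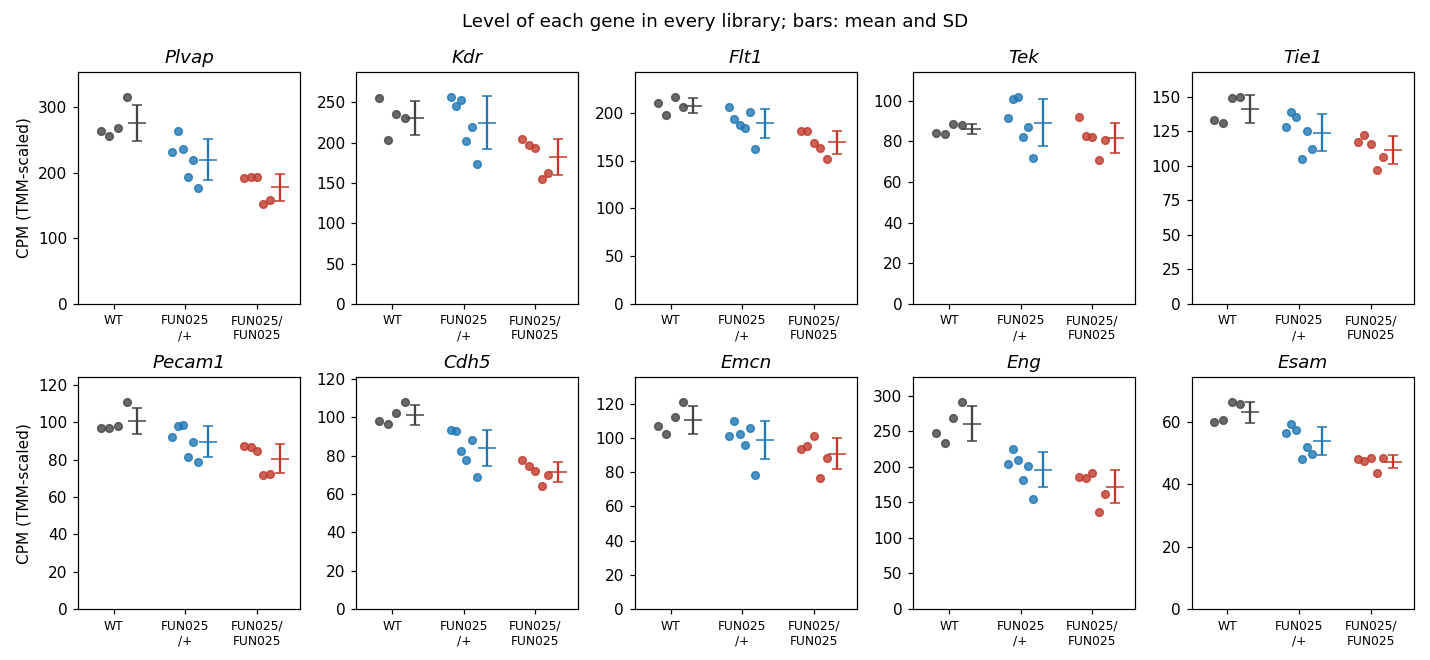
CPM (y axis, from 0) of each of the 10 genes in 4 WT, 6 FUN025/+ and 5 FUN025/FUN025 libraries (points), with the mean and SD of each genotype as a bar beside them. The FUN025/FUN025 points sit below all WT points in 8 of the 10 panels and overlap them for Kdr and Tek. The FUN025/+ points sit below all WT points for Cdh5, Eng and Esam alone, and the mutant genotypes overlap each other in every panel.

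Plvap (ENSMUSG00000034845, chr8:71497765-71511752, − strand), the diaphragm protein of fenestrated capillaries, was measured at 264, 256, 268 and 316 CPM in the 4 WT mice. The FUN025/+ mice ranged from 176 to 263 CPM with a median of 225, and the FUN025/FUN025 mice had 192, 193, 193, 152 and 159 CPM. All 5 homozygotes were thus below every WT library, whereas the heterozygotes spanned the gap and reached into the WT range. The slope was -0.32 ± 0.052 (log2 per allele ± SE, edgeR adjusted p = 0.00171). Against WT, Plvap was 35.6% lower in FUN025/FUN025 (log2 change -0.63 ± 0.109, adjusted p = 0.00123) and 20.4% lower in FUN025/+ (-0.33 ± 0.105, adjusted p = 0.0482), the latter call being held in only 2 of the 15 fits that each left out 1 mouse.

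Among the adhesion molecules of endothelial junctions, Cdh5 (ENSMUSG00000031871, chr8:104101625-104144511, + strand), the cadherin of the adherens junction, gave 97.9, 96.6, 102 and 108 CPM in WT. It ranged from 69.0 to 93.4 CPM with a median of 85.3 in FUN025/+ and was at 77.8, 74.5, 71.8, 64.0 and 69.7 CPM in FUN025/FUN025. Every mutant library was below every WT library. The slope was -0.25 ± 0.038 (edgeR adjusted p = 0.000861), and the level was 17.0% lower in FUN025/+ (adjusted p = 0.0231) and 29.2% lower in FUN025/FUN025 (adjusted p = 0.00033).

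Esam (ENSMUSG00000001946, chr9:37528078-37538319, + strand), an immunoglobulin-type adhesion molecule of tight junctions, showed the same separation at a lower level. The WT mice had 59.8, 60.5, 66.3 and 65.5 CPM, the FUN025/+ mice 48.0 to 59.4 CPM with a median of 54.2, and the FUN025/FUN025 mice 48.1, 47.3, 48.4, 43.6 and 48.4 CPM. The homozygotes were tightly grouped apart from replicate 4, and no mutant reached the lowest WT value. Its slope of -0.21 ± 0.031 (edgeR adjusted p = 0.000605) was 2.18 times its within-genotype SD, the highest such ratio of the 10. The change was -0.23 ± 0.06 in FUN025/+ (adjusted p = 0.0174) and -0.42 ± 0.063 in FUN025/FUN025 (adjusted p = 0.000212).

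Pecam1 (ENSMUSG00000020717, chr11:106654217-106750628, − strand), which binds itself across cell contacts, was at 97.1, 97.0, 98.3 and 111 CPM in the WT mice and 87.5, 87.1, 84.5, 71.6 and 72.6 CPM in FUN025/FUN025. The FUN025/+ mice ranged from 79.0 to 98.4 CPM with a median of 91.0. The homozygotes lay below all WT libraries and the heterozygotes overlapped them. The slope (-0.16 ± 0.038, edgeR adjusted p = 0.0155) and the change in FUN025/FUN025 (-0.32 ± 0.077, adjusted p = 0.0105) were called, and the change in FUN025/+ (-0.17 ± 0.074, adjusted p = 0.144) was not. The summed level of 3 platelet genes ran from 11.4 to 17.7 CPM in WT and from 11.5 to 15.9 CPM in the mutants, and none of the 3 was called (Pf4 had a slope of -0.05 and Itga2b of -0.04).

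Eng (ENSMUSG00000026814, chr2:32646595-32682669, + strand), the co-receptor that presents bone morphogenetic proteins to Acvrl1, had 248, 234, 269 and 291 CPM in WT. The FUN025/+ mice had 155 to 225 CPM with a median of 203, and the FUN025/FUN025 mice 186, 184, 191, 136 and 162 CPM. All 11 mutants were below all 4 WT libraries, and the genotypes of the mutants overlapped each other. Eng had the largest change of the 10 in FUN025/+ (-0.41 ± 0.104, edgeR adjusted p = 0.0172), and it was 34.0% lower in FUN025/FUN025 (-0.60 ± 0.109, adjusted p = 0.00195), with a slope of -0.30 ± 0.054 (adjusted p = 0.00402).

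Emcn (ENSMUSG00000054690, chr3:137341067-137432185, + strand), a mucin that keeps leukocytes off the vessel wall, had smaller estimates. Its WT values were 107, 102, 112 and 121 CPM, those of FUN025/FUN025 93.4, 95.4, 101, 76.4 and 88.2 CPM, and FUN025/+ ranged from 78.6 to 110 CPM with a median of 101. The homozygotes ended just below the lowest WT library. The slope (-0.14 ± 0.043, edgeR adjusted p = 0.0511) lay just outside the threshold and the change in FUN025/FUN025 (-0.28 ± 0.089, adjusted p = 0.0456) just inside, and the latter was called in 4 of the 15 fits that left out 1 mouse.

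The receptors of the VEGF family differed in their spread. Flt1 (ENSMUSG00000029648, chr5:147561604-147726011, − strand) was at 210, 198, 217 and 206 CPM in the WT mice and 181, 181, 169, 163 and 152 CPM in FUN025/FUN025, with FUN025/+ from 162 to 206 CPM and a median of 190. Kdr (ENSMUSG00000062960, chr5:75932827-75978458, − strand) was at 255, 203, 235 and 230 CPM in the WT mice and 204, 197, 193, 155 and 162 CPM in FUN025/FUN025, with FUN025/+ from 173 to 257 CPM and a median of 233. The homozygous and WT ranges were separate for Flt1 and met at 1 WT library for Kdr. The slope of Flt1 was called (-0.15 ± 0.032, edgeR adjusted p = 0.00991), and that of Kdr, a little larger but with a wider error, was not (-0.18 ± 0.06, adjusted p = 0.0761). The log2 ratio of Kdr to Flt1 averaged 0.15 ± 0.1 (SD) in WT, 0.24 ± 0.14 in FUN025/+ and 0.1 ± 0.11 in FUN025/FUN025. Its slope was -0.03 per allele, and the ranges of the ratio overlapped between all 3 genotypes.

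Of the angiopoietin receptors, Tie1 (ENSMUSG00000033191, chr4:118471191-118490061, − strand) had 133, 131, 149 and 150 CPM in the WT mice, 117, 122, 116, 96.7 and 106 CPM in FUN025/FUN025 and 105 to 139 CPM with a median of 127 in FUN025/+. Tek (ENSMUSG00000006386, chr4:94739289-94874976, + strand) had 84.2, 83.5, 88.4 and 88.3 CPM in the WT mice, 91.9, 82.8, 82.3, 71.0 and 80.9 CPM in FUN025/FUN025 and 71.6 to 102 CPM with a median of 89.3 in FUN025/+. For Tie1 the homozygotes were all below WT, and for Tek the 3 genotypes overlapped, with the highest values among the heterozygotes. The slope of Tie1 was -0.17 ± 0.040 (edgeR adjusted p = 0.0154) and that of Tek -0.04 ± 0.045 (adjusted p = 0.608). The log2 ratio of Tek to Tie1 averaged -0.71 ± 0.06 (SD, n = 4) in WT, -0.48 ± 0.1 (n = 6) in FUN025/+ and -0.45 ± 0.08 (n = 5) in FUN025/FUN025. Its slope was 0.13 per allele, and 0.111 to 0.145 when any 1 mouse was left out. The slopes of the pair lay closer in 2 other fits, in which neither was called: with an offset for GC content, of which Tie1 has 57.6% and Tek 47.1%, they were -0.12 and -0.06 (edgeR adjusted p = 0.0692 and 0.482), and with the muscle and rod covariates -0.19 and -0.12 (adjusted p = 0.0873 and 0.262). The ratio of Tek to Tie1 and that of Kdr to Flt1 were formed after the values had been seen. They are given as descriptions, and the permutation test run on each is not reported here.

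**Figure D2:**
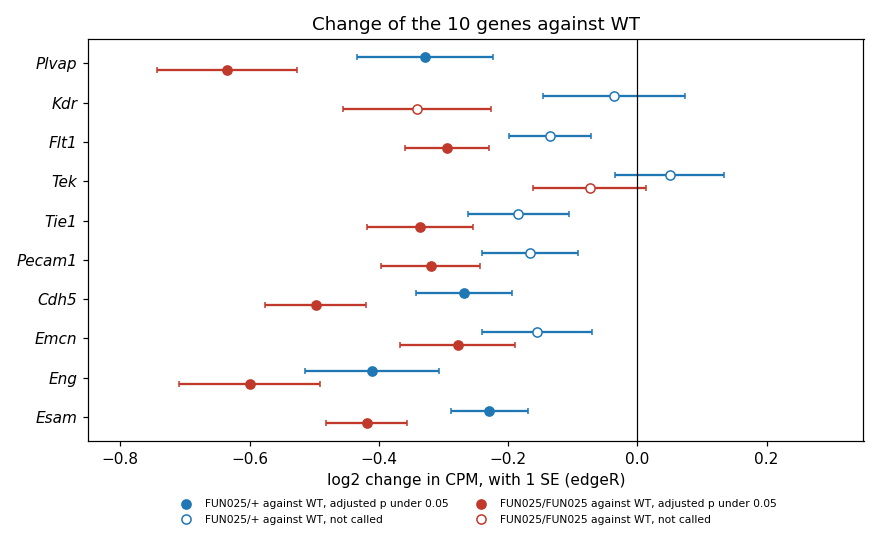
log2 change in CPM (x axis) of each gene (y axis) in FUN025/+ (blue) and FUN025/FUN025 (red) against the same 4 WT libraries, with 1 SE; filled points passed an adjusted p of 0.05. All red points are left of 0 and 8 are filled, whereas the blue points are filled for Plvap, Cdh5, Eng and Esam alone.

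The homozygotes were then set against the heterozygotes. All 10 members were lower in FUN025/FUN025, with log2 changes of -0.31 to -0.12 and a median of -0.17, but none was called by edgeR over all genes (adjusted p = 0.297 for Esam to 0.994 for Emcn), where 0.195% of genes were called lower. At an unadjusted p under 0.05 the edgeR test passed 6 members (Plvap, Kdr, Flt1, Pecam1, Cdh5 and Esam), against 3.31% of all genes lower in this way, and DESeq2 called 0 after adjustment. No member had CPM ranges that were separate in this contrast (0.495% of all genes lower). The heterozygotes did not differ detectably from the midpoint of the other genotypes: the differences ran from -0.111 ± 0.087 (Eng) to 0.135 ± 0.09 (Kdr), 0 members were called by edgeR (1.95% of all genes, either direction), 0 by DESeq2 and 0 had an unadjusted edgeR p under 0.05 (16.3% of all genes). Kdr (-0.04 ± 0.11) and Tek (0.05 ± 0.084) were the members with the least change in FUN025/+ against WT. Since no member was called between FUN025/FUN025 and FUN025/+, an intermediate level in the heterozygote was not established for any of the 10.

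The members also rose and fell together from mouse to mouse within a genotype. With genotype means subtracted, all 45 pairs of members correlated positively over the 15 libraries, from r = 0.421 (Flt1 with Esam) to 0.966 (Plvap with Pecam1 and Emcn with Eng), with a median of 0.815. Over all pairs of tested genes the median was -0.002, and over pairs of the 3938 genes within the members' range of mean CPM it was 0.012. In all, 97.8% of member pairs exceeded 0.5, against 5.6% and 8.33% of the other pairs. These correlations describe points that share library, dissection and scaling. Each member followed the mean of the other 9, with Flt1 lowest (r = 0.731) and Eng highest (0.964). Tek, whose slope was not called, followed the others as closely as Tie1 and Emcn (all 0.896).

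**Figure D3:**
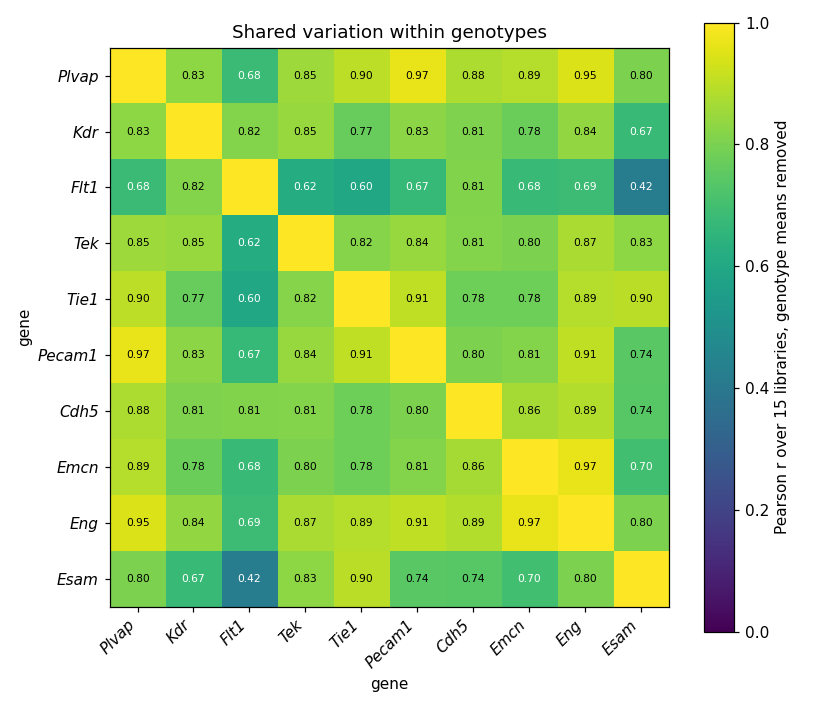
Pearson r between the log2 CPM of each pair of the 10 genes (both axes) over 15 libraries after subtraction of genotype means, as colour and printed value. Every pair is positive, the rows of Flt1 and Esam being the lowest.

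In each library the members were averaged after each gene was centred on its mean over 15 libraries. The WT libraries were at 0.18, 0.11, 0.24 and 0.30 log2 units, the FUN025/+ libraries from -0.24 to 0.17, and the FUN025/FUN025 libraries at -0.07, -0.09, -0.11, -0.37 and -0.26. Every WT library was above 0 and every homozygote below it. Among the heterozygotes, 4 were above 0 and 2, replicates 4 and 6, had all 10 members below their means. The SD within genotypes was 0.133 log2 units, so that the distance between the means of WT (0.20) and FUN025/FUN025 (-0.18) exceeded it, and that between WT and FUN025/+ (0.01) did so by less.

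**Figure D4:**
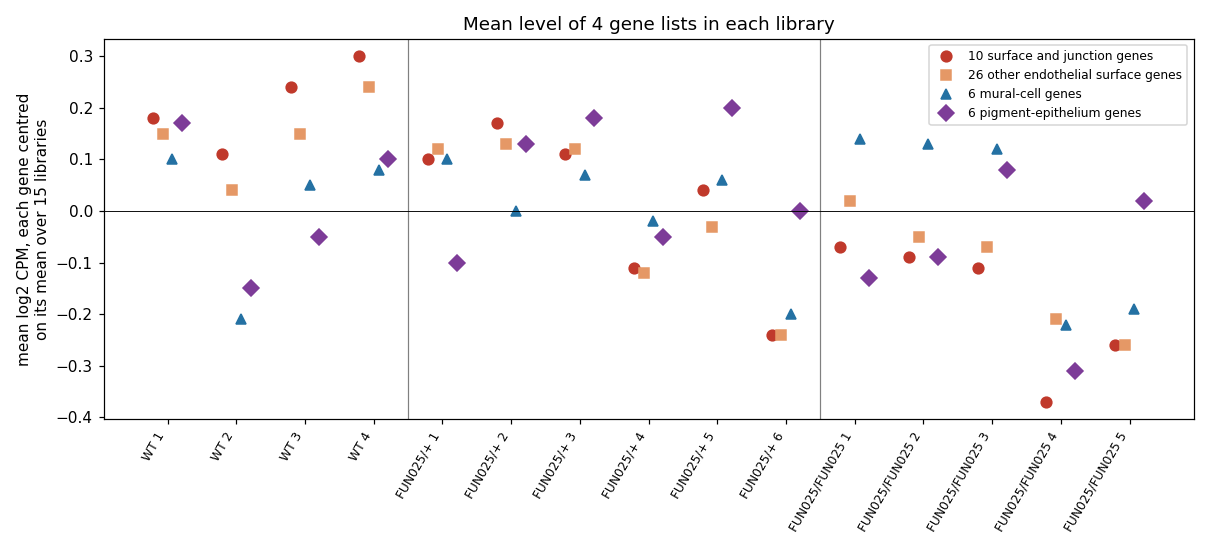
Mean log2 CPM of 4 gene lists (y axis, each gene centred on its mean over the 15 libraries) in each library (x axis; vertical lines part the genotypes). The 10 surface and junction genes and the 26 other endothelial genes run together, from above 0 in all WT libraries to at or below 0.02 in all homozygotes, while mural-cell and pigment-epithelium genes lie on both sides of 0 in every genotype.

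Other endothelial surface genes were compared with the members. Of 26 companion genes, 10 fell with allele number and none rose (median slope -0.13). Among them were Robo4, a guidance receptor of endothelium (38.2 ± 3.88 CPM in WT, 26.5 ± 1.11 in FUN025/FUN025, slope -0.26, edgeR adjusted p = 0.00207), the sphingosine-1-phosphate receptor S1pr1 (slope -0.21, adjusted p = 0.0043), the adhesion molecule Mcam (slope -0.26, adjusted p = 0.00598) and Thbd, thrombomodulin (slope -0.17, adjusted p = 0.0105). Others, named after their values were seen, were not called: Cldn5, the main claudin of endothelial tight junctions, had an edgeR slope of -0.12 (adjusted p = 0.119) and Jam2, another junction molecule, of -0.02 (adjusted p = 0.76). Within genotypes the companion mean followed the member mean with r = 0.948. Other lists shared this variation too, with r = 0.843 for partners of the members, 0.813 for mural cells, 0.661 for fibroblasts and 0.562 for macrophages.

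When the companion mean entered the model as a covariate, so that members were compared at equal companion level, the slopes shrank to a median of -0.06 and 2 members were still called lower, against 0.527% of all genes in that fit: Plvap (-0.15 ± 0.0336, edgeR adjusted p = 0.0321) and Cdh5 (-0.14 ± 0.0338, adjusted p = 0.0496). Esam (-0.14 ± 0.0336, adjusted p = 0.0509) and Eng (-0.14 ± 0.0435, adjusted p = 0.106) had slopes of similar size. Kdr, Emcn, Pecam1, Tie1 and Flt1 lay between -0.01 and -0.07, and Tek turned to 0.086 (adjusted p = 0.222). In FUN025/+ against WT, Eng was called lower under this covariate (-0.25 ± 0.0636, edgeR adjusted p = 0.0183; 5.76% of all genes lower) and Tek higher (0.18 ± 0.054, adjusted p = 0.0364; 6.31% of all genes higher). For FUN025/FUN025 against WT, 4 members were called lower at equal companion level (2.9% of all genes): Plvap (-0.30, adjusted p = 0.011), Cdh5 (-0.28, adjusted p = 0.0186), Esam (-0.28, adjusted p = 0.0191) and Eng (-0.29, adjusted p = 0.0333). The companion mean itself was on average lower in both mutant genotypes, at 0.15 log2 units in WT, -0.0 in FUN025/+ and -0.11 in FUN025/FUN025. In both contrasts with WT, this covariate thus removes shared genotype change together with shared variation between mice.

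Other covariates were entered in the same way. With the first principal component of the variation within genotypes, 9 members fell with allele number, Tek being the exception, with a median slope of -0.17, and 5.4% of all genes were called lower. This component was taken after genotype means were removed, so it could narrow the errors but hardly move the slopes. The unchanged median slope was thus largely fixed in advance. With the means of muscle and rod genes, whose averages were higher in WT, the median slope was -0.22 with wider errors, and 3 members were called, against 0.58% of all genes lower: Plvap (-0.34 ± 0.0726, edgeR adjusted p = 0.031), Cdh5 (-0.27 ± 0.0511, adjusted p = 0.00994) and Esam (-0.24 ± 0.041, adjusted p = 0.00413). On the slope, Plvap and Cdh5 were called under each of these models and with genotype alone, and Tek under none of them.

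**Figure D5:**
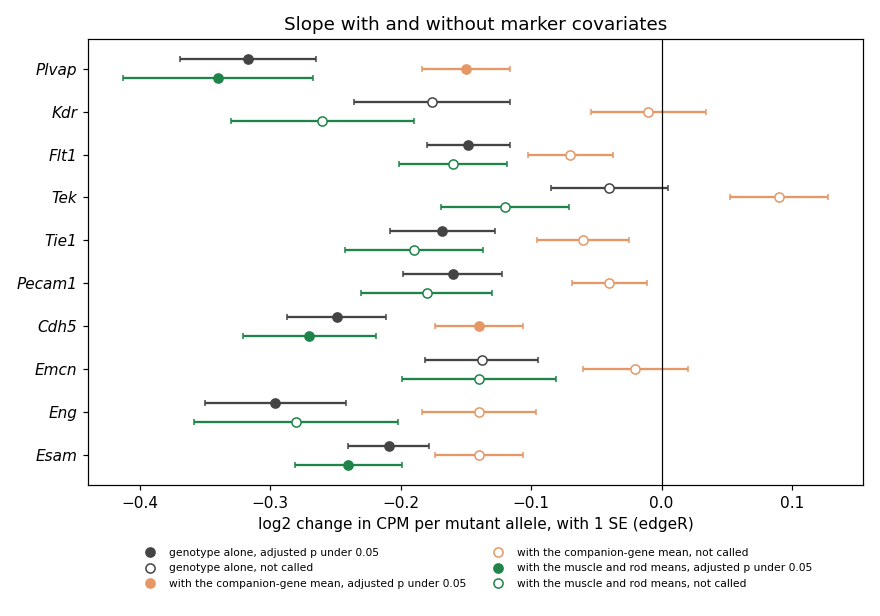
Slope of each gene per mutant allele (x axis, log2 CPM, with 1 SE) with genotype alone (dark), with the mean of 26 companion endothelial genes (orange) and with the means of muscle and rod genes (green); filled points passed an adjusted p of 0.05. The orange slopes lie nearest to 0 except for Tek, whose orange slope is above 0, and Plvap and Cdh5 are filled in all 3 models.

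Partners and ligands of the members were counted next. Of 10 intracellular or surface partners (neuropilins, the phosphatase Ptprb, catenins and receptors of the transforming growth factor beta family), Acvrl1 alone fell with allele number, from 108 ± 5.44 CPM in WT to 92.5 ± 6.62 and 83.0 ± 11.0 (slope -0.19, edgeR adjusted p = 0.00834), and the median slope was 0.02. Acvrl1 is the endothelial receptor with which Eng works. Of 11 ligands, 9 were tested, and Angpt2, an angiopoietin made by endothelium, fell from 12.6 ± 1.76 to 9.64 ± 1.27 CPM (slope -0.19, adjusted p = 0.0467), with a median slope of -0.07 over the 9. In single contrasts, Angpt1, the activating ligand of Tek, was higher in FUN025/+ (0.43 ± 0.13, adjusted p = 0.0408) and Tgfb1 lower in FUN025/FUN025 (-0.32 ± 0.1, adjusted p = 0.0384), which were named after their values were seen.

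Markers of other cell types were called in few cases. None of 6 mural-cell genes was called on the slope (median 0.02), the most abundant being Rgs5 (slope 0.06) and Pdgfrb (-0.14), and none of 3 lymphatic genes, with Pdpn at 0.03 and Lyve1 at -0.08. None of 5 red-cell genes (median slope -0.19, Hbb-bs -0.28 and Hba-a1 -0.02), 6 pigment-epithelium genes (median -0.08, Rgr -0.07 and Ttr 0.11) or 5 fibroblast genes (median -0.10, Dcn -0.12 and Col1a2 -0.10) was called either. Of 4 genes of barrier endothelium, which lacks fenestrae, 3 had negative slopes that were not called (median of the 4 -0.03), and the lipid transporter Mfsd2a, which pigment epithelium also expresses, rose from 20.6 ± 1.8 to 34.0 ± 7.7 CPM (slope 0.37, edgeR adjusted p = 0.00783). Of 6 macrophage genes Cd68 rose (slope 0.16, adjusted p = 0.022). None of the 8 rod or 8 muscle genes was called on the slope (medians -0.93 and -0.29, with Gnat1 at -0.95, Atp2a1 at -0.35 and Myh4 at -0.16), while Acta1 and Tnni2 were lower in FUN025/+ (-0.90 for each, adjusted p = 0.0202 and 0.0282) and Acta1 in FUN025/FUN025 (-0.83, adjusted p = 0.0345), both named after their values were seen. The part of rods and muscle in the members' fall was not tested beyond the covariate model given above.

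The genes whose variation within genotypes was most like that of the members, out of 17573 with a mean of at least 1 CPM, were Adgb (r = 0.956), Car8 (0.938), Foxd2 (0.935), Scrg1 (0.926) and Cd34 (0.921), over 15 libraries. Their slopes with allele number were between -0.09 and 0.01 and none was called (edgeR adjusted p = 0.247 to 0.922). Further down the ranking, Stab1 (rank 7, r = 0.912) had a slope of -0.11 (edgeR adjusted p = 0.0369). Sox18 (rank 17, r = 0.886) had a slope of -0.36 (edgeR adjusted p = 0.0159). Both were called lower and were named after their values were seen. Cd34 is itself a companion gene, and 8 of the 26 companions were among the first 100 ranks and 16 among the first 1000. Genes that tracked the members from mouse to mouse thus included genes without a called change, at 7.78 to 184 CPM.

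The members also differed in base composition, taken over the longest annotated transcript of each gene. GC content ran from 40.7% for Emcn to 60.6% for Plvap, with a median of 51.4% against 49.7% over 18952 genes. Across the 10 members, GC content and the change in FUN025/FUN025 correlated with r = -0.721, a description over 10 genes that share libraries, and across the 18952 genes with r = -0.133. With an offset that removed the trend with GC in each library, Plvap changed by -0.52 (edgeR adjusted p = 0.00658) and Eng by -0.50 (adjusted p = 0.00708) in FUN025/FUN025, Tie1 by -0.24 (adjusted p = 0.0628) and Emcn by -0.36 (adjusted p = 0.0141). In FUN025/+ none of the 10 was called by edgeR with this offset, where 4.44% of all genes were called lower, Cdh5 being nearest (-0.23, adjusted p = 0.0549).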

How the data were processed

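RNA was measured by poly(A)-selected, paired-end sequencing of posterior eyecups pooled within each of 15 mice. The deposited values are raw read counts per Ensembl gene, 1 table per mouse. The labels name FastQC 0.11.8, Trimmomatic 0.39, HISAT2 2.1.0, SAMtools, featureCounts 2.0.0 and the GRCm38 genome; annotation release, strand setting and treatment of reads with several alignments were not given in the sources used here.

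Of 55421 genes, 55240 were matched to symbols in GENCODE. The variance filter of the study (bottom 15%) was applied and genes were then filtered with filterByExpr, leaving 18979. Counts were scaled by TMM and fitted with edgeR 4.0.16 (quasi-likelihood, R 4.3.3), with mutant alleles as a number for the slope and genotypes as groups for the contrasts, all 15 libraries sharing 1 dispersion estimate. p-values were adjusted by Benjamini-Hochberg over all genes tested, with a threshold of 0.05. Correlations were taken on log2 CPM (prior count 2). Alternatives were other scalings, filters, DESeq2 1.42.0, limma 3.58.1, covariates (residual component: first principal component of all tested genes with genotype means removed), a GC offset, thinning to 10903183 counts, and leaving out each mouse. The fits were also run on simulated counts, drawn for each gene independently. These counts hold no variation shared between genes, so they do not bear on it. SDs are between mice, and floors of 3 counts cover counting error only.

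All 10 members were named. Of every other list, genes past the threshold on the slope were named, at most 4 by p-value, and where none passed the 2 of highest mean CPM. Some genes that this rule names are not reported here. The members and lists were chosen with earlier results of these data known.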

Additional observations from a re-analysis of the deposited data

Results flagged for a closer look

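In 30 groups of libraries (10 genes in 3 genotypes), 2 held a library far from the rest by Dixon's ratio at the 95% level, and chance alone gives about 1 such group in 20. Pecam1 stood at 111 CPM in WT replicate 4, where the other 3 WT libraries were at 97.0 to 98.3 CPM. Without WT replicate 4 the fall of the members was called for 5 genes in FUN025/FUN025. Esam stood at 43.6 CPM in FUN025/FUN025 replicate 4, below the 47.3 to 48.4 CPM of the other 4 homozygotes, and that library also had the lowest mean of the 10 members (-0.37 log2 units).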

How the results depend on the processing

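Counts of members called lower (7 on the slope, 4 in FUN025/+, 8 in FUN025/FUN025) stayed at 7 to 9, 3 to 4 and 7 to 9 under other scalings, filters, DESeq2, limma-trend, thinning, the Xist covariate and the residual component, and under a fit of only the genotypes compared where that applied. The slopes under the residual component were largely fixed in advance, since that component holds no difference between genotype means. The cause of the following changes was not tested unless stated. With the companion covariate the counts were 2, 1 and 4, the median in FUN025/FUN025 was -0.12, Tek was called higher in FUN025/+ (0.18, edgeR adjusted p = 0.0364), where Eng was the member called lower, and Tek turned to 0.086 on the slope, 0.18 in FUN025/FUN025 against WT and 0.00054 against FUN025/+, and Kdr to 0.14 in FUN025/+ and 0.0032 in FUN025/FUN025. The companion mean was itself on average lower in both mutant genotypes. With the muscle and rod covariates the counts were 3, 1 and 5 (0.58%, 0.616% and 1.68% of all genes called lower), the medians in FUN025/+ and FUN025/FUN025 were -0.34 and -0.51, and Tek turned to -0.28 in FUN025/+. With the GC offset 0 members were called in FUN025/+.

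Leaving out 1 mouse gave 5 to 8 members on the slope, 0 to 4 in FUN025/+ and 5 to 9 in FUN025/FUN025, the lowest of each without WT replicate 4, and a Kdr change in FUN025/+ of -0.086 to 0.03, above 0 without WT replicate 1 (0.015) or FUN025/+ replicate 6. Fewer mice remain in these fits. Against FUN025/+, 0 members were called in FUN025/FUN025 in each.

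Replicate numbers are shared between genotypes, but libraries of the same number did not deviate together (r from -0.385 to 0.133, and 2 of 26 checks found the highest correlation at the same number). With the replicate block 7 members were called on the slope, 0 in FUN025/+, 9 in FUN025/FUN025 and 1 (Kdr) in FUN025/FUN025 against FUN025/+ (1.82%, 5.16%, 5.57% and 0.179% of all genes called lower), and Kdr in FUN025/+ was at 0.056.

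Of 630 values of single members under alternatives other than leaving out a mouse, 570 kept their direction and their side of the threshold, 39 lost their call, 14 gained one and 7 changed sign. Depth set no floor here, since every member had at least 531 counts in every library, but 4 WT mice limit what a test can resolve.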
